A study of Homo sapiens with 47 samples.

Results

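The proteasome subunit genes are the 48 RefSeq protein-coding genes whose symbol is PSMA, PSMB, PSMC, PSMD, PSME, PSMF or PSMG followed by a number. They were taken by symbol alone from 17523 protein-coding genes of known or inferred strand. The set itself was chosen with earlier results of these data known. A binding site was given to a gene when its midpoint lay in the gene span on the strand of the gene. The sites come from uSpyCLIP-seq. In this assay living cells are irradiated so that a tagged protein stays bound to its RNA, RNase I trims that RNA, the protein is caught through SpyTag and SpyCatcher, and the RNA fragments left on it are sequenced.

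All libraries were made from 293T, a transformed human embryonic kidney line, here Lenti-X 293T lines that stably express an RNA-binding protein. The 47 libraries form 20 groups. PTBP1, a splicing repressor that binds pyrimidine-rich RNA, was profiled from 10000000, 100000, 10000 and 1000 cells, and RBFOX2, a splicing regulator that binds GCAUG, from 10000000 cells. SpyCatcher1.0 and SpyCatcher2.0 were each used at 20 and 40 µg, and the labels do not name the protein captured there. The catalytically inactive nucleases dPspCas13b and dRfxCas13d, which bind RNA through a guide RNA, were profiled under ultraviolet light without guide and with the guides EZH2g1 and EZH2g2. Each group used here has 1 site list, with 15 lists in all, and uncrosslinked libraries are not analysed here.

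The proteasome degrades proteins marked with ubiquitin. Its core particle is a barrel of alpha rings (PSMA genes), which gate the entrance, and beta rings (PSMB genes), which cut the substrate inside. The regulatory particle caps the barrel: its ATPases (PSMC genes) unfold the substrate, and its non-ATPase subunits (PSMD genes) bind and remove ubiquitin. Other activators (PSME genes) and the inhibitor PSMF1 bind the same barrel, and the PSMG proteins are chaperones that help to assemble it. Most cells make these subunits all the time, whereas PSMB8, PSMB9 and PSMB10 belong to the immunoproteasome, PSMB11 to the thymus and PSMA8 to the testis.

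The lists hold positions and strands and no read counts, so the depth behind a site is unknown and differences between lists cannot be parted from differences in depth. Since a group has only 1 list, replicate spread is unknown and nothing was tested. Values in parentheses after a share give its 95% Clopper-Pearson interval, and after a ratio of counts the interval that follows from the share; both cover counting error only. The amount of each RNA in the cells was not measured, so its part in every count below was not tested. Coordinates are on hg38, and the annotation used gives gene spans without exons, introns or untranslated regions.

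Of the 48 genes, 38 (79.2%) held a PTBP1 cluster at 10000000 cells, against 66% of all protein-coding genes. The number was 36 at 100000 cells (75%, all genes 61.9%), 31 at 10000 (64.6%, all genes 51.6%) and 22 at 1000 (45.8%, all genes 34.6%). RBFOX2 clusters lay in 28 of them (58.3%, all genes 43.8%). The share of proteasome genes lay above the share of all genes in each of these 5 lists.

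In total the 48 genes held 2474 PTBP1 clusters at the highest input, then 2006 with 100000 cells, 902 with 10000 and 129 with 1000. They make up 0.107% of the summed span of protein-coding genes and held 0.271% (0.261 to 0.282) of the clusters in such genes at 10000000 cells. That share was 0.276% at 100000 cells, 0.383% at 10000 and 0.452% (0.377 to 0.536) at 1000. The proteasome genes are short, with a median span of 13551 nt against 26874 nt for all genes, and their pooled density was 1.93 PTBP1 clusters per kb against 0.76.

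The clusters were unevenly spread over the genes. PSMD1, PSME4 and PSMD14 together held 25% of the 2474 clusters at 10000000 cells. At 1000 cells PSME3, PSMD11 and PSMA4 held 43.4% of the 129. The leading genes thus differed between the highest and the lowest input.

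Among the alpha subunits, 7 of 8 held a PTBP1 cluster at 10000000 cells (all genes 66%), with 401 clusters and 1.23 per kb. PSMA1 held 105, 81, 19 and 1 from the highest to the lowest input over a span of 138.8 kb, and a single RBFOX2 cluster. PSMA5 held 86, 83, 55 and 9 in 27.4 kb, with 43 RBFOX2 clusters. PSMA6 held 45 and 40 at the higher inputs and 0 at both lower ones, and all 45 also lie in the readthrough gene PRORP-PSMA6, so they cannot be given to PSMA6 alone. PSMA7 held 3, 0, 2 and 0.

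PSMA4 was the densest alpha gene, at 4.58 clusters per kb. Its counts were 55, 26, 28 and 15 along the titration and 22 for RBFOX2, so the number at 1000 cells was 27.3% of that at 10000000. The gene spans chr15:78540405-78552417 on the plus strand. Of its 55 clusters at 10000000 cells, 44 lay in the first 2000 nt of the span, and so did 14 of 15 at 1000 cells and 20 of 22 for RBFOX2. PSMA4 is thus a gene whose clusters sit near its 5′ end in both proteins.

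Letters could be read from RefSeq promoter sequences (GRCh38.p14) for 25 clusters in 6 of the genes, 16 of them in PSMA4. The following PSMA4 clusters are shown because each overlaps a cluster of another list, with the cluster itself in capitals and the flanking bases in lower case, 5′ to 3′ on the strand of the gene.
PSMA4, PTBP1 at 10000000 cells, overlapping 1 at 10000 cells, chr15:78540568-78540597: gaagCTTGGCCGCTTTCCCATTGGGCgggg
PSMA4, RBFOX2, overlapping PTBP1 at 10000000 and 100000 cells, chr15:78540770-78540799: cgggctgagggTGGGGGTCtgtgggcagga
In 30-base windows centred on the cluster, TCTT on the strand of the gene was found in 2 of 19 PTBP1 windows of proteasome genes and in 25.3% of the 2003 such windows of all protein-coding genes. On the other strand it was found in 2 of 19 and in 5.79%. GCATG was found in 0 of the 3 RBFOX2 windows of proteasome genes on either strand, and in 0.75% of 265 windows of all genes on the strand of the gene and 1.13% on the other. These windows all lie close to an annotated start, so clusters deeper in the genes were not searched.

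Among the constitutive beta subunits, 6 of 7 held a PTBP1 cluster at 10000000 cells (all genes 66%), with 435 clusters and 2.95 per kb. PSMB1, a non-catalytic beta subunit, was the densest of all 48 genes at 8.30 clusters per kb, with 151, 144, 66 and 5 PTBP1 clusters and 49 RBFOX2 clusters in 18.2 kb. Its strand was inferred from these PTBP1 clusters. PSMB2, also non-catalytic, held 134, 106, 45 and 14, with 27 for RBFOX2.

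The catalytic subunits differed widely. PSMB7, which cuts after basic residues, held 115, 93, 17 and 0 clusters, and 10 of the 115 also lie in a long non-coding RNA gene on the same strand. PSMB5, which cuts after hydrophobic residues and is the main target of proteasome inhibitors, held 25, 31, 5 and 1. PSMB6, which cuts after acidic residues, held 3, 2, 0 and 0 in a span of only 2.33 kb, so the longest gene of these held most.

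All 4 tissue or immune beta genes held 0 clusters in the 9 lists of PTBP1, RBFOX2 and SpyCatcher. PSMB8 and PSMB9 lie in the same stretch of 307 kb on chromosome 6 in which none of the 15 lists holds a site and which holds 9 protein-coding genes. PSMB11 has 12.4 kb without a site around it, and PSMB10 held 1 Cas13 site with a guide (below).

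The zero was shared by other genes of the complex. Of the 48, 9 held no site in any of the 15 lists, against 29.4% of all protein-coding genes. Besides PSMB8, PSMB9 and PSMB11 these were PSMA8, PSMB3, PSMC4, PSMD5, PSME1 and PSME2. PSME1 and PSME2 lie in a stretch of 767 kb on chromosome 14 with 33 protein-coding genes and no site, and PSMC4 in one of 663 kb on chromosome 19 with 13 such genes. PSMB3 lies in one of 134 kb with 6 genes, and PSMA8 in one of 140 kb. In all, 7 of the 9 lie in site-free stretches of over 100 kb, which hold 19.8% of all protein-coding genes. Outside them, 38 of 41 proteasome genes (92.7%) held a PTBP1 cluster at 10000000 cells, against 82.2% of all genes. Since these stretches are defined by holding no site, leaving them out can only raise both shares.

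Among the 6 ATPases of the regulatory particle, 5 held a PTBP1 cluster at 10000000 cells (all genes 66%), but PSMC2 alone held 117 of their 155. PSMC2 held 117, 129, 43 and 0 PTBP1 clusters and 24 for RBFOX2. The others ranged from 0 to 22: PSMC6 held 22, PSMC1 11, PSMC3 3, PSMC5 2 and PSMC4 0. The ATPases act as a ring of equal numbers, and their genes did not share a level of clusters.

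All 11 non-ATPase subunits held a PTBP1 cluster at 10000000 cells (all genes 66%), with 848 clusters and 2.26 per kb. PSMD1, a large scaffold subunit, held most of any proteasome gene: 249, 272, 40 and 4, with 40 for RBFOX2, over 116.0 kb. PSMD14, the deubiquitinase that removes ubiquitin chains from the substrate, held 175, 148, 126 and 4, with 39 for RBFOX2. Its number at 10000 cells was 72.0% of that at 10000000, against 16.1% for PSMD1, so these long genes parted at that input.

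PSMD11, a lid subunit that helps to join the regulatory particle to the core, held 116, 84, 75 and 19, with 42 for RBFOX2. PSMD13 held 46, 37, 29 and 7, PSMD12 74, 69, 47 and 4, and PSMD6 62, 46, 31 and 3. At the low end, PSMD7, the partner of PSMD14, held 1, 0, 0 and 0, PSMD8 held 4, 5, 0 and 0, and PSMD2, a scaffold that receives ubiquitin-like shuttles, held 15, 9, 0 and 0. Members of the same lid thus ranged from 1 to 175 clusters.

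Of the regulatory particle chaperones, PSMD9 held 43, 31, 14 and 3 and PSMD10 held 31, 12, 9 and 0. Among the activators, PSME4, a large activator of the nucleus, held 195, 138, 63 and 6. The inhibitor PSMF1 held 139, 99, 17 and 1, with 5 for RBFOX2. Of the core chaperones, PSMG4 was the densest at 5.79 clusters per kb, with 79, 49, 39 and 4, and PSMG1 held 20, 18, 1 and 2.

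PSME3, the nuclear activator that is expressed in most cells, had the highest number of clusters at 10000 and at 1000 cells, relative to 10000000, of the 48 genes. It held 63, 58, 56 and 22 PTBP1 clusters in 10.4 kb, so the number at 10000 cells was 88.9% of that at 10000000, and the number at 1000 cells 34.9%. Its 45 RBFOX2 clusters equal 71.4% of its PTBP1 number, the highest such ratio among the 48 genes. The gene spans chr17:42833397-42843760 on the plus strand. Letters are shown for a pair of overlapping clusters of the 2 proteins at its 5′ end.
PSME3, PTBP1 at 10000000 cells, chr17:42833409-42833438: gtgagCGGCGAAAGCCGGGAGGGCGagcga
PSME3, RBFOX2, chr17:42833399-42833428: agtttccggcgtGAGCGGcgaaagccggga
These are not where most of its clusters lie, which is the 3′ end described below.

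**Figure D1:**
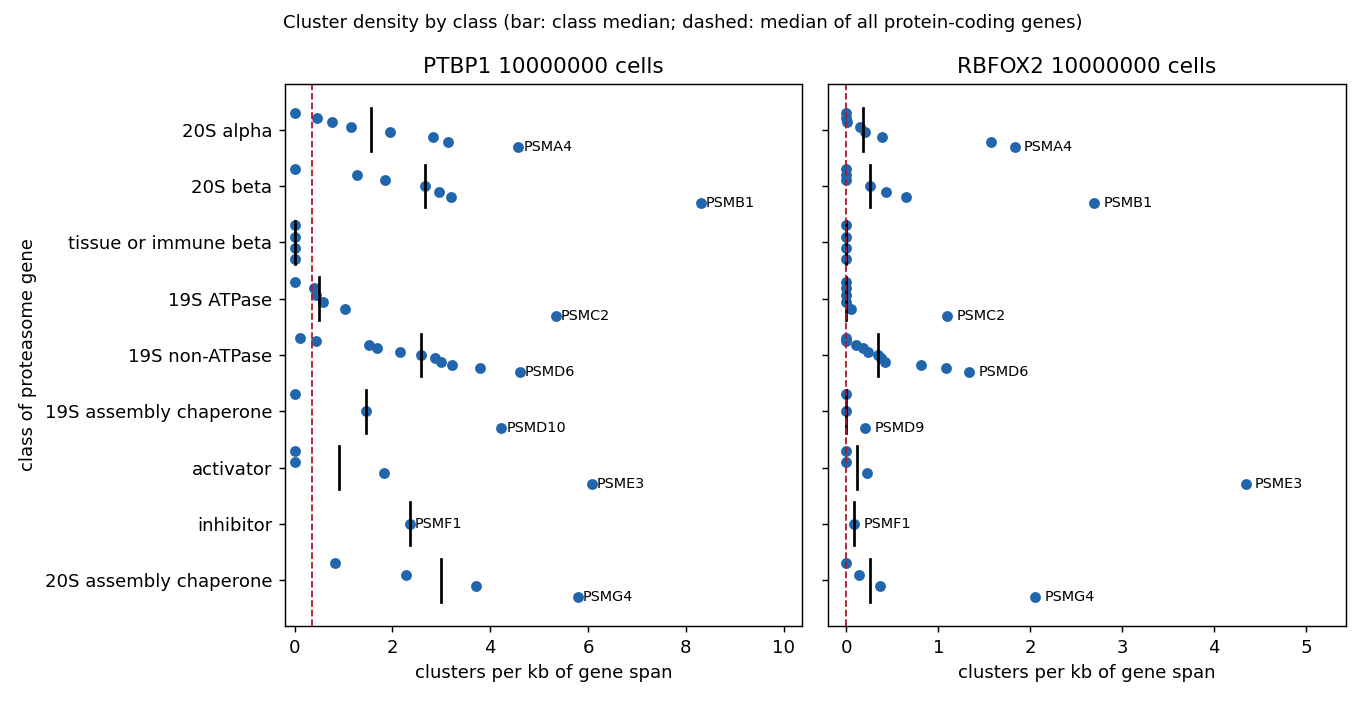
Clusters per kb of gene span (horizontal axis) for each proteasome gene (points, grouped by class), for PTBP1 on the left and RBFOX2 on the right, with the class median as a bar and the median of all protein-coding genes as a dashed line (0.37 and 0). On the axis, 20S names the core particle and 19S the regulatory particle. PSMB1 at 8.30 and PSME3 at 6.08 stand highest for PTBP1, and PSME3 at 4.34 for RBFOX2.

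Core and regulatory genes were then compared. The core class is PSMA and PSMB (19 genes), the regulatory class PSMC, PSMD, PSME and PSMF (25 genes). At 10000000 cells 13 core genes (68.4%) and 21 regulatory genes (84%) held a PTBP1 cluster, against 66% of all protein-coding genes. Pooled over each class, the density there was 1.72 and 2.09 clusters per kb. The ratio of regulatory to core density was 1.22 (1.12 to 1.33) there, 1.29 (1.18 to 1.42) at 100000 cells and 1.5 (1.3 to 1.74) at 10000. At 1000 cells it was 1.06 (0.73 to 1.56), and for RBFOX2 1.06 (0.87 to 1.28).

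Much of the difference went with core genes that held no cluster. Without PSMA8, PSMB8, PSMB9, PSMB10 and PSMB11 the ratio was 1.03 at 10000000 cells, 1.10 at 100000 and 1.28 at 10000, and it fell below 1 at 1000 cells (0.90) and for RBFOX2 (0.90). At 1000 cells it was 0.76 without PSME3. The tissue or immune genes left out are all in the core class. PSMC4, PSMD5, PSME1 and PSME2, also without a cluster, stayed in the regulatory class, and PSMB3 stayed in the core. The ratio stayed above 1 at the 3 higher inputs, but it was only 1.03 at 10000000 cells, without an interval. At 1000 cells and for RBFOX2 the order turned with the genes counted. The spread within each class, from 0 to 8.30 clusters per kb in the core and from 0 to 6.08 in the regulatory class, was far larger.

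The input titration was followed gene by gene as the number of clusters at lower input in percent of that at 10000000 cells. Summed over the 48 genes it was 81.1% at 100000 cells (all genes 79.8%), 36.5% at 10000 (all genes 25.8%) and 5.21% at 1000 (all genes 3.13%). Of 31 proteasome genes with at least 10 clusters at 10000000 cells, 22 lay above the median of all such genes at 100000 cells (70.7%), where the background is 50% of genes. At 10000 cells 23 lay above the median of 19% (background 50%), and at 1000 cells 18 lay above the median of 1.35% (background 50%).

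The median over the 31 genes at 1000 cells was 2.29%, and 12 of them lay above the upper quartile of all such genes. The sum depended on a few genes. Without PSME3, PSMD11 and PSMA4 the sum was 3.26% of that at 10000000 cells, near the 3.13% of all genes, which were not trimmed in the same way. Without the 3 leading genes at 10000 cells, PSMD14, PSMD11 and PSMB1, it was 31.2% there, still above 25.8%. Of the 31 genes, 10 held 0 clusters at 1000 cells, where 38.8% of all such genes held 0, among them PSMC2 and PSMB7 with 117 and 115 at the highest input.

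The order of inputs was not kept by every gene. PSMB5, PSMC2, PSMC6, PSMD1 and PSMD8 held more clusters at 100000 than at 10000000 cells, 5 of 48 genes against 11.2% of all protein-coding genes. PSMA4 and PSMA7 held more at 10000 than at 100000 (all genes 3.45%), and PSMC3 and PSMG1 more at 1000 than at 10000 (all genes 4.38%). Of the 38 genes with a cluster at 10000000 cells, 21 held one at all 4 inputs (43.8% of 48, all genes 30.7%), and no gene with a cluster at 1000 cells lacked one at 10000000 (all genes 1.04%).

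The strand of the gene moved with the counts. In the deposited lists the share of clusters on minus-strand protein-coding genes went from 53.8% at 10000000 cells to 69.0% at 1000. In proteasome genes it went from 42.2% (40.2 to 44.2) to 37.2% (28.9 to 46.2). PSME3, PSMD11 and PSMA4 are all on the plus strand, and without them the share went from 46.6% to 65.8% (53.7 to 76.5). They were picked by their counts at 1000 cells, so leaving them out had to raise the minus-strand share there. The values of all genes were not trimmed in this way. On plus-strand genes alone the number at 1000 cells was 5.66% of that at 10000000 for proteasome genes and 2.10% for all genes; on minus-strand genes the values were 4.60% and 4.01%.

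No proteasome gene held an RBFOX2 cluster without a PTBP1 cluster at 10000000 cells, against 0.496% of all protein-coding genes that did. PTBP1 clusters alone were held by 10 proteasome genes (20.8%), near the 22.7% of all genes: PSMA7, PSMB4, PSMB6, PSMC3, PSMC5, PSMC6, PSMD2, PSMD7, PSMD10 and PSMG1. The 494 RBFOX2 clusters of the complex equal 20.0% of its PTBP1 clusters, against 12.3% for all genes. The 31 genes with at least 10 PTBP1 clusters had a median of 16.1% against 6.90%, and 23 of them lay above the median of all genes (background 49.8%).

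The most RBFOX2 clusters lay in PSMB1 (49), PSME3 (45), PSMA5 (43), PSMD11 (42), PSMD1 (40) and PSMD14 (39), which held 52.2% of the 494. In contrast PSMA1 held 1 beside 105 PTBP1 clusters and PSMF1 5 beside 139. Of the RBFOX2 clusters in proteasome genes, 88.7% (85.5 to 91.3) overlapped a PTBP1 cluster from 10000000 cells by at least 1 nt, against 81.8% of those in all protein-coding genes. Fewer shared a centre: 51.2% had a PTBP1 centre within 5 nt. The core and regulatory classes gave 90.0% and 88.0% overlap. PTBP1 clusters were also denser in proteasome genes, with 1.93 per kb against 0.76 in all genes. The part of this density in the overlap was not tested.

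The SpyCatcher lists are shorter, and PSMD11, PSMA4 or PSMB1 led each of them. SpyCatcher1.0 at 20 µg gave 60 clusters in 20 of the 48 genes (41.7%, all genes 25.5%), and at 40 µg 63 clusters in 20 genes (41.7%, all genes 26.6%). SpyCatcher2.0 gave 96 clusters in 23 genes at 20 µg (47.9%, all genes 30.3%) and 81 in 17 genes at 40 µg (35.4%, all genes 31.6%). PSMD11 held 8, 8, 12 and 12 clusters in the order of these lists, PSMA4 6, 9, 9 and 9, PSMB1 8 in each, and PSME3 4, 4, 8 and 8.

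The ratio of SpyCatcher2.0 to SpyCatcher1.0 clusters in proteasome genes was 1.60 (1.15 to 2.25) at 20 µg, against 1.53 in all genes. At 40 µg it was 1.29 (0.91 to 1.82), against 1.57, a difference within counting error. At 20 µg 17 genes held more clusters with version 2.0 and 3 held fewer, and at 40 µg 13 held more and 6 fewer. PSMB2 went the other way at 20 µg, with 5 clusters for version 1.0 and 2 for version 2.0. Genes with more or fewer clusters were not counted over all protein-coding genes. The version 2.0 lists are also longer, with 25028 and 28586 sites against 16507 and 18228. These gene counts are therefore not read as a result about the complex. Of the clusters in proteasome genes, 82.5% to 93.8% overlapped a PTBP1 cluster from 10000000 cells in the 4 lists, against 81.0% to 82.9% in all genes. SpyCatcher1.0 at 40 µg gave the lowest value, which did not exceed that of all genes, 82.7%. The part of the higher PTBP1 cluster density of proteasome genes in these overlaps was not tested either.

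The 9 lists of narrow clusters met at a small number of places. Merged over these lists, the clusters of the proteasome genes form 3274 stretches, of which 62.0% come from a single list, 29 from 7 or more lists and 6 from all 9. All 9 lists held a cluster in 11 of the 48 genes, against 12.8% of all protein-coding genes. The 29 stretches lie in 15 genes, with 5 in PSME3, 4 in PSMD11 and 3 in PSMB2.

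The 6 stretches found in all 9 lists lie in PSMA4, PSMD11, PSMD13 and PSME3. They are 60 to 319 nt wide, where the median cluster was 6 nt wide. A wide cluster of 1 list can join separate clusters of others, so the lists need not share a site there. Stretches were not counted over all protein-coding genes. In PSMD11 they are chr17:32481528-32481790 and chr17:32481995-32482313, 1660 and 1165 nt from the 3′ end of the span. In PSME3 they are chr17:42841707-42841841 and chr17:42842840-42843010, 1986 and 835 nt from the 3′ end. The PSMA4 stretch, chr15:78541454-78541747, lies 1195 nt from the 5′ end, and that of PSMD13, chr11:241974-242033, 5027 nt from the 5′ end.

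Position along the gene was compared over all members. In proteasome genes 11.2% (9.98 to 12.5) of the PTBP1 clusters at 10000000 cells lay in the last 2000 nt of the span, 9.32% at 100000 cells, 16.2% at 10000 and 32.6% (24.6 to 41.4) at 1000. The last 2000 nt make up 7.46% of the span of proteasome genes. For all protein-coding genes, where they make up 2.85% of the span, the values were 7.74%, 4.51%, 9.38% and 12.2%, so in both sets the lowest share was at 100000 cells.

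At the lower inputs most clusters of the last 2000 nt lay in PSME3 and PSMD11. They held 78 of 277 at 10000000 cells, 73 of 187 at 100000 and 87 of 146 at 10000. Of the 42 clusters in the last 2000 nt at 1000 cells, 37 lay in these genes, 19 in PSME3 and 18 in PSMD11. Without them the share was 8.67% at 10000000 cells, 6.12% at 100000, 7.65% at 10000 and 5.68% at 1000, and 4.18% in place of 16.2% for RBFOX2. The window makes up 7.43% of the remaining span. The shares at 100000 and at 1000 cells lay below it, but the share at 1000 cells rests on 5 of 88 clusters. PSME3 and PSMD11 were left out after they were seen to lead this window at the lower inputs, so a fall there had to follow. The values of all genes were not trimmed in the same way.

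Clusters of other genes also bunched, each at its own place. In the densest window of 2000 nt, PSMA5 held 70 of its 86 PTBP1 clusters at 10000000 cells, from 20033 nt to 22026 nt after the 5′ end, and 35 of its 43 RBFOX2 clusters lay between 20120 and 22042 nt. PSMD6 held 33 of 62, and PSMD13 27 of 46 and all 7 of its clusters at 1000 cells. In PSMD1 and PSME4, the densest window held 47 of 249 and 33 of 195. These genes span 116.0 and 106.9 kb, against 13.5 kb for PSMD6 and 16.0 kb for PSMD13. The same window is thus a smaller part of the longer genes, and these shares do not rank the genes by bunching. The widest clusters of the complex were in PSMD11, 318 and 263 nt at 10000000 cells, where the median cluster of the 48 genes was 6 nt wide.

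Without a guide RNA, dPspCas13b held 22 sites in 11 proteasome genes (22.9%, all genes 11.6%) and dRfxCas13d 16 sites in 12 (25%, all genes 11%). At least 1 of the proteins had a site in 20 genes (41.7%, all genes 18.3%), and both had one in PSMB4, PSMB5 and PSME3 (6.25%, all genes 4.29%). By class, dPspCas13b sites lay in 7 core (36.8%) and 4 regulatory genes (16%), and those of dRfxCas13d in 5 (26.3%) and 7 (28%). None of the 4 PSMG chaperone genes held an unguided site. These are too few genes to set against the 18.3% of all genes.

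PSMD11 held 9 of the 22 dPspCas13b sites. They overlap each other, from chr17:32481534 to chr17:32482309, and lie 1078 to 1715 nt before the 3′ end. Of the 9, 8 overlap a merged stretch to which all 9 narrow lists contribute. That need not mean a cluster of each list at the site. Counted site by site, they overlapped clusters of 5 to 9 of the narrow lists. PSMA4 held 3 and PSMA7 2, and PSMA1, PSMB2, PSMB4, PSMB5, PSMB6, PSMD9, PSME3 and PSME4 1 each. With overlapping sites merged, the 22 sites become 12 stretches. The 9 PSMD11 sites form a single stretch.

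For dRfxCas13d, PSMA5 held 3 sites and PSMA2 and PSMB4 2 each, and PSMB1, PSMB5, PSMC2, PSMC3, PSMD6, PSMD7, PSMD12, PSME3 and PSMF1 1 each. These 16 sites do not overlap each other. The 3 PSMA5 sites lie 14537, 15362 and 16441 nt after the 5′ end, before the 2000 nt in which most PTBP1 clusters of this gene lie. PSMD11, first for dPspCas13b, held none for dRfxCas13d.

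A single site pair was shared by the proteins, in PSME3: chr17:42842542-42842669 for dPspCas13b and chr17:42842625-42842798 for dRfxCas13d. The overlap is under 50% of the shorter site. Of the dPspCas13b sites in proteasome genes, 17 of 22 overlapped a PTBP1 cluster at 10000000 cells (77.3%, 54.6 to 92.2), against 50.5% in all protein-coding genes, but 9 of these are the PSMD11 sites and 8 remain without them. For dRfxCas13d it was 5 of 16 (31.2%, 11 to 58.7), against 36.8%. The part of PTBP1 cluster density in these overlaps was not tested. In the last 2000 nt lay 14 of the 22 dPspCas13b sites (63.6%, all genes 46.4%), but 5 of 13 (38.5%) without PSMD11. For dRfxCas13d it was 6 of 16 (37.5%, all genes 31.4%). This window makes up 7.46% of the span of proteasome genes and 2.85% of that of all genes, so these shares are not on an equal footing.

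With guides named for EZH2, sites in proteasome genes were few. A site of any of the 4 guide lists lay in 9 of the 48 genes (18.8%, all genes 12.4%). dPspCas13b with EZH2g1 had a site in 0 of the 48 genes, where 0.302% of all genes held one. Of its 57 sites in protein-coding genes, 0 lay in proteasome genes, which make up 0.107% of the span. This allows a share of sites of up to 5.26% by the limit of 3 counts (6.27% by the exact interval). dRfxCas13d with EZH2g1 had 5 sites in 5 genes (10.4%, all genes 4.67%), dPspCas13b with EZH2g2 2 in 2 genes (4.17%, all genes 2.89%) and dRfxCas13d with EZH2g2 6 in 4 genes (8.33%, all genes 6.08%).

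The EZH2g1 sites of dRfxCas13d were chr6:170549985-170550130 in PSMB1, chr16:67935588-67935724 in PSMB10, chrX:108084601-108084810 in PSMD10, chr17:67360579-67360775 in PSMD12 and chr2:161395015-161395220 in PSMD14. The PSMB10 site is the only one of any list in an immune subunit. None of the 5 overlaps an unguided site of either protein. Those in PSMB1 and PSMD10 overlap PTBP1 clusters, and the other 3 overlap no narrow cluster.

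With EZH2g2, PSME3 held sites of both proteins at the same place. These were chr17:42842419-42842685 for dPspCas13b and chr17:42842459-42842632 for dRfxCas13d, and both overlap the unguided sites of both proteins and clusters of PTBP1 at all 4 inputs and of RBFOX2. This place was therefore listed with and without a guide. A second dRfxCas13d site, chr17:42833349-42833676, lies at the 5′ end of PSME3, over the letters printed above.

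The other EZH2g2 sites were seen with 1 protein. For dRfxCas13d they were chr2:231056800-231057054 and chr2:231061208-231061341 in PSMD1, chr16:74304258-74304417 in PSMD7 and chr21:39183343-39183542 in PSMG1. For dPspCas13b it was chrX:108084893-108085016 in PSMD10, 747 nt before the 3′ end. PSMD10, also called gankyrin, thus held 1 site with each guide, at places that do not overlap, and none without a guide. The EZH2g1 site was of dRfxCas13d and the EZH2g2 site of dPspCas13b, so guide and protein cannot be told apart there. The first PSMD1 site and the PSMG1 site have midpoints 60 and 72 nt after the 5′ end of the span.

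Other proteasome genes outside the symbol rule, such as the ubiquitin receptor ADRM1, the deubiquitinases UCHL5 and USP14, the assembly factor POMP and the transcription factor NFE2L1, were counted as a list of 20. Of them 19 held a PTBP1 cluster at 10000000 cells (all genes 66%) and 11 at 1000 (all genes 34.6%). Their density was 1.84 and 0.081 clusters per kb, against 1.93 and 0.10 in the 48 genes. RBFOX2 clusters lay in 17 of the 20 (all genes 43.8%). Among complexes of similar build, the COP9 signalosome held 2.40 PTBP1 clusters per kb at 10000000 cells, eIF3 2.47 and the CCT chaperonin 2.76, so the proteasome genes were not the densest of these. Unguided dPspCas13b sites lay in 7 of 8 CCT genes, 8 of 13 eIF3 genes and 1 of 9 COP9 genes, and in 11 of the 48 (all genes 11.6%).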

How the data were processed

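Per the labels, uSpyCLIP-seq libraries came from Lenti-X 293T lines irradiated on ice. Trim Galore 0.0.6, STAR 2.7.9a and hg38 are listed in the submitters' processing notes. How sites were called, at which thresholds and whether libraries were pooled is not given in sources used here. For each group used here the authors deposited 1 list of site positions and strands, with no scores. Starts are given here from 1. Lists of 2 further groups, of another guide, are not reported here.

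Gene spans and, for 42 of the 48 genes, strands came from RefSeq tables (GRCh38.p14). The strands of PSMA7, PSMB1, PSMB6, PSMB7, PSMD4 and PSMG3 were inferred: at least 3 PTBP1 clusters at 10000000 cells outside other protein-coding genes, at least 90% of them on 1 strand. This selects bound genes, so values with table strands alone are in the closing section. Of 20037 protein-coding genes, 17523 have a strand, 1680 of them inferred. Sites count as overlapping from 1 shared nt on, strand included.

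The members, gene lists and comparisons were chosen with earlier results of these data known. Named are the 6 genes with most and the 6 with fewest PTBP1 clusters at 10000000 cells, by count and by density, up to 12 with clusters at 1000 cells, the 6 with most RBFOX2 clusters, up to 15 with unguided Cas13 sites, all with a site in a guide list and all with no site. PSMA3, PSMA6, PSMB7, PSMC1, PSMC5, PSMC6, PSMD2, PSMD8 and PSMG2 were singled out for other values after these were seen. No test was made, since each group has 1 list. Computation used Python 3.11.15, numpy 2.4.6, pandas 2.3.3 and scipy 1.17.1. Counting and overlap code was tested on simulated data. The letters of some clusters are not reported here.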

Additional observations from a re-analysis of the deposited data

Results flagged for a closer look

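Some proteasome genes held PTBP1 clusters on the opposite strand of their span at 10000000 cells, above 3 clusters, in data that the comparisons did not use. PSMA3 held 30, of which 29 lie in PSMA3-AS1, beside 77 on its own strand. PSMG2 held 21, all inside the spans of its opposite-strand neighbours SPIRE1 and CEP76, beside 55. PSMF1 held 20 beside 139, none of them in the opposite-strand gene annotated there. PSMD7 held 8 beside 1 on its own strand, with no opposite-strand gene of known strand over it, and its opposite strand also held 7 RBFOX2 clusters and 7 and 8 PTBP1 clusters at 100000 and 10000 cells.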

How the results depend on the processing

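No paired analysis was possible because each group has 1 site list. No replicate could be left out, for the same reason. Of 383 values recomputed, 347 stayed close to the reported value, 33 moved and 3 changed direction; a count was taken to move beyond 1.5 times, and a ratio or percentage outside its 95% interval. Counting any overlap, either strand, or leaving out sites in a second protein-coding gene moved no count of genes or sites past that limit. Asking for at least 2 sites left 12 and 13 genes for SpyCatcher1.0 at 20 and 40 µg, 3 for dPspCas13b and 3 for dRfxCas13d without guide, 0 for dRfxCas13d with EZH2g1, 0 for dPspCas13b with EZH2g2 and 2 for dRfxCas13d with EZH2g2. For dPspCas13b without guide, merging gave 12 sites and leaving out PSMD11 gave 13, with 8 overlapping PTBP1; with EZH2g2 1 site is left without the first gene. The ratio of regulatory to core density without tissue or immune genes was 1.03, 1.10, 1.28 and 0.90 in order of falling input and 0.90 for RBFOX2. As a ratio of medians over genes it was 1.48 at 100000 cells, 2.52 at 10000 and 15 for RBFOX2, whose class medians are close to 0. Without the leading gene of the list it was 0.76 at 1000 cells (PSME3) and 1.40 for RBFOX2 (PSMB1). Without its 3 leading genes the titration gave 75.9% at 100000 cells, 31.2% at 10000 and 3.26% at 1000. RBFOX2 overlap with PTBP1 was 93.3% within 10 nt and 51.2% for centres within 5 nt. Asked to share at least 50% of the shorter site, the unguided Cas13 proteins shared 0 sites. These causes were not tested. With table strands alone, 76.2% of 42 genes held a PTBP1 cluster at 10000000 cells (all genes 62.4%) and 50.0% at 1000 (all genes 32.7%). Alternatives that leave out named genes, site-free stretches or inferred strands were chosen after seeing the data. Depth is unknown, so an absent site need not mean an unbound gene.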
